A study of Mus musculus with 9 samples.

Results

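Integrins and cadherins are the 2 large families of adhesion receptors that hold a cell to its matrix and to its neighbours. The genes described here were taken by symbol: every integrin α or β subunit gene (Itga or Itgb, with the similarly named binding proteins left out) and every numbered cadherin gene (Cdh). That gave 51 of the 55359 genes counted, 28 of them integrin genes and 23 cadherin genes. Of these, 34 had enough counts to be tested, 23 integrin and 11 cadherin genes, and 17 did not.

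An integrin is a pair of 1 α and 1 β subunit, and the α subunit largely sets which matrix protein is bound. The products of Itga1, Itga2, Itga10 and Itga11 bind collagens, those of Itga3, Itga6 and Itga7 bind laminins of the basement membrane, and those of Itga5, Itga8, Itgav and Itga2b recognise the RGD tripeptide in fibronectin and related proteins. Most of these α subunits pair with β1, the product of Itgb1, while αv also pairs with β3, β5, β6 and β8. A further set of integrins, built mainly on β2 and β7, is known from leukocytes. Cadherins bind cadherins on the adjacent cell in a calcium-dependent way and are tied to actin through the catenins. In fat tissue each mature adipocyte is wrapped in a laminin-rich basement membrane, whereas part of its fibroblast-like precursors lie among fibrillar collagen and fibronectin. Contact of the cells with matrix is not measured by the counts used here.

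The libraries hold ribosome footprints, the stretches of mRNA that a ribosome shields from nuclease. The cells were preadipocytes from inguinal white fat (iWAT) of the mouse, a depot under the skin. The day 0 cells were not induced, and the day 4 and day 8 cells had been taken through beige adipocyte differentiation for that many days, with 3 libraries per group. For the first 2 days the differentiating cells received dexamethasone, 3-isobutyl-1-methylxanthine (IBMX), indomethacin, insulin, T3 and rosiglitazone, and then a maintenance medium lacking the first 3 of these. The labels give no genotype, strain or age. The labels do not say whether the libraries of a group came from separate animals or cultures, so the p-values cover only how these libraries differ, which may be technical. A footprint level depends both on how much mRNA is present and on how many ribosomes it carries, and in a bulk lysate fewer cells of a type and less RNA per cell cannot be told apart.

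Library totals ranged from 30823028 to 38994892 counts. The 7 tested adipocyte markers of 8 listed were higher than at day 0 on both days, and the summed level of the 7 preadipocyte markers was 2402 to 2551 CPM (the read count normalised to library size) at day 0, 804 to 1823 at day 4 and 527 to 721 at day 8. Most of that sum came from Pdgfra and Pdgfrb. At day 4, 3 of these markers were higher (Dlk1, Ly6a and Cd34), 2 lower and 2 not called, and at day 8, 3 were lower and 4 not called. Among all genes tested, 29.8% were higher and 28.4% lower at day 4, and 34.2% and 33.5% at day 8. The day 4 library with the highest preadipocyte sum was replicate 2, and day 8 replicate 3 was the highest of its group. Both also lay nearest to day 0 for many of the adhesion genes below. The counts over all tested integrin and cadherin genes are therefore given with and without them. Leaving both out together was not planned, and the pair was chosen partly on these same genes. Calls gained in that setting are therefore description only. Counts for ligand classes, the cadherins alone and other lists include both libraries.

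Together the integrin and cadherin genes held 0.58% to 0.63% of all footprint counts at day 0, 0.165% to 0.27% at day 4 and 0.177% to 0.23% at day 8. The differentiated libraries did not overlap the uninduced ones in this share. At day 4, 21 of the 34 tested genes were lower than at day 0, 6 were higher and 7 were not called, with a median log2 change of -1.05. Of all 14714 genes tested, 58.2% were called in that comparison, 28.4% lower and 29.8% higher, with a median of -0.018. At day 8, 21 genes were lower, 6 higher and 7 not called, with a median of -1.4, beside 67.7% of all genes called (33.5% lower, 34.2% higher, median -0.006). Both comparisons rest on the same day 0 libraries. Between day 8 and day 4, 6 genes were higher, 5 lower and 23 not called, beside 31.8% of all genes called (14.7% higher, 17.1% lower). Calls are edgeR quasi-likelihood tests with a Benjamini-Hochberg adjusted p under 0.05 over all genes. Without the 2 libraries named above, 5 were higher and 22 lower at day 4, 7 higher and 21 lower at day 8, and 6 higher and 6 lower between the days. In that setting 9888, 10513 and 5474 of the 14714 genes were called in the 3 comparisons. With all libraries these numbers were 8563, 9961 and 4676. The 5 lower between the days became 2 without day 8 replicate 1 or without day 8 replicate 2. The calls over all genes between the days fell to 2722 and 2737 there.

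**Figure D1:**
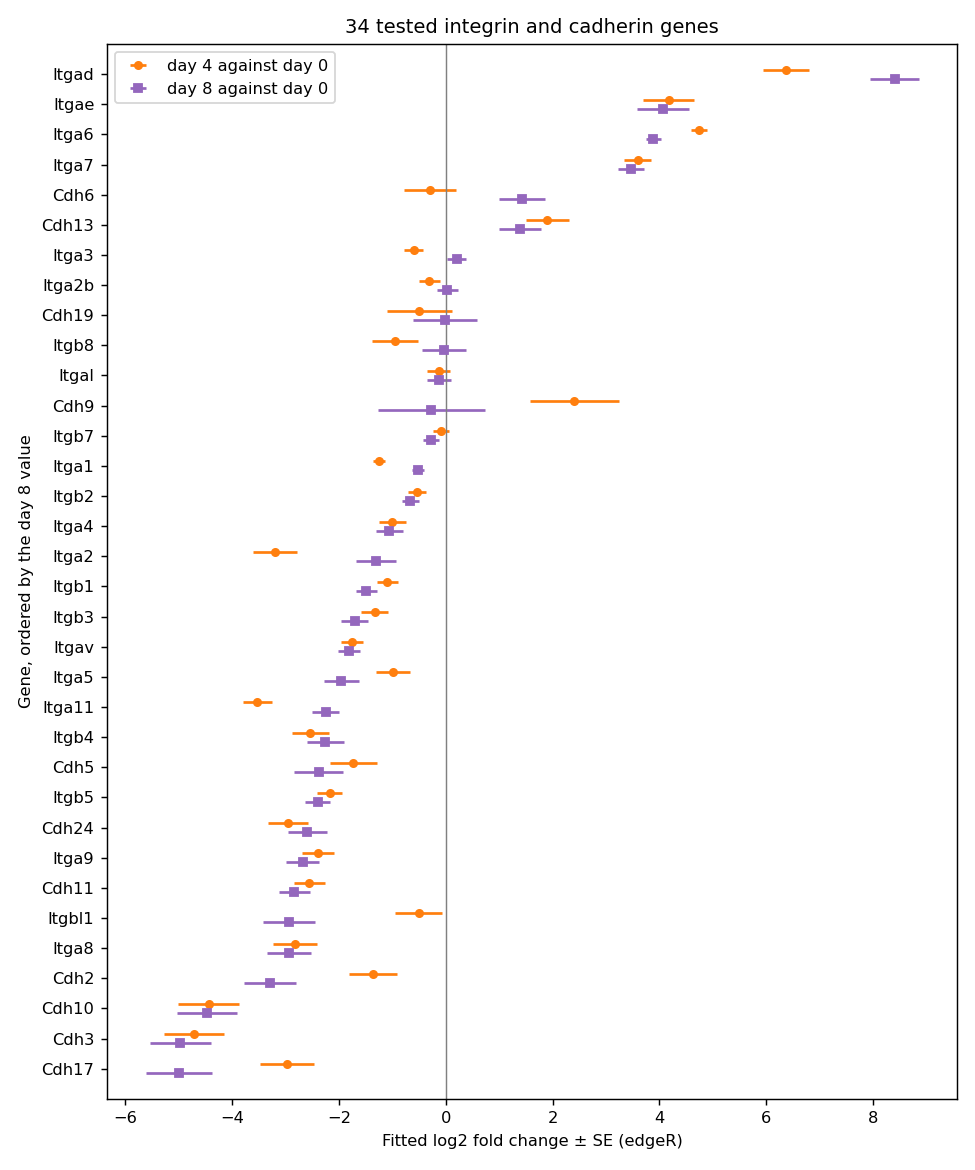
Fitted log2 change of each of the 34 tested genes at day 4 (circles) and day 8 (squares) against day 0, with bars of 1 SE from edgeR, ordered by the day 8 value. Itgad, Itgae, Itga6, Itga7 and Cdh13 lie to the right of 0 on both days, and Cdh17, Cdh3 and Cdh10 lie farthest to the left at day 8.

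The 3 tested collagen-binding α subunits were lower than at day 0 on both days, and 3 of 3 were higher at day 8 than at day 4. The laminin-binding class was split, with Itga6 and Itga7 higher on both days. Of the 7 tested fibronectin- and RGD-binding subunits, 5 were lower at day 4, 5 were lower at day 8 and none was higher in either comparison. Over all genes, 28.4% were lower at day 4 and 33.5% at day 8. The promoters of 4 of the genes that were lower on both days are printed here, 1 collagen-binding α, 1 fibronectin-binding α and 2 β subunits, as examples chosen by hand among the 12 such genes with an entry in the RefSeq table of mouse GRCm38.p6. Each is the 250 bases before the annotated start, 5′ to 3′ on the gene's strand. Itga11 lies on the plus strand (chr9:62677605-62677854), Itgb5 on the plus strand (chr16:33829415-33829664), Itga5 on the minus strand (chr15:103366792-103367041) and Itgb1 on the plus strand (chr8:128685404-128685653). Capitals mark the GC box GGGCGG on either strand and the TEAD core GGAATG.
Itga11: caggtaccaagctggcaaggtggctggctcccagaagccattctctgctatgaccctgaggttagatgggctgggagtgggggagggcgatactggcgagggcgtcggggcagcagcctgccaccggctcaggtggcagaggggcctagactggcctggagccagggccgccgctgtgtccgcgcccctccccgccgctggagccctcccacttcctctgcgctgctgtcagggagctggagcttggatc
Itgb5: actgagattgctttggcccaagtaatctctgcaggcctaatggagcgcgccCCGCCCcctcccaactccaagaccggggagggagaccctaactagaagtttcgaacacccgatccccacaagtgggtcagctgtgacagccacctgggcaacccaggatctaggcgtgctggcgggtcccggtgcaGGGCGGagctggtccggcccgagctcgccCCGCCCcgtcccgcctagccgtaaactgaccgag
Itga5: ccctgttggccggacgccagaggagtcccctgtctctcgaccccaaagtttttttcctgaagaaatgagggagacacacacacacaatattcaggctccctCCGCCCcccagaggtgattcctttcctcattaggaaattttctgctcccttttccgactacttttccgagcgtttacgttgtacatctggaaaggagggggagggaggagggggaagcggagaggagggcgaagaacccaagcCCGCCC
Itgb1: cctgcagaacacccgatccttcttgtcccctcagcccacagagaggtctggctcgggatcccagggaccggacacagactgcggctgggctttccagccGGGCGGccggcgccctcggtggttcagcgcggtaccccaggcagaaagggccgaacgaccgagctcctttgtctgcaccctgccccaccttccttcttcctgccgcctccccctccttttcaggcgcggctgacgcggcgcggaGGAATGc
The GC box, known for binding Sp1-type factors, was found 3 times for Itgb5, 2 times for Itga5, 1 time for Itgb1 and 0 times for Itga11, and 32.7% of all 32851 promoters in the table hold it. The TEAD core, known from targets of the YAP and TAZ coactivators, was found 1 time for Itgb1 and in 12.6% of all promoters. Both strands were searched for each motif, and the marked matches do not overlap. The AP-1 site TGANTCA (6.75% of all promoters), the CArG box of serum response factor (1.47%), the nuclear receptor half-site AGGTCA (14%) and the C/EBP motif TTGCNNAA (9.56%) had no match in these 4 windows. Over all 12 genes that were lower on both days and have a promoter in the table, 5 held the GC box (also Itga4 and Cdh24), 2 held the TEAD core (also Cdh10) and 0 held any of the other 4 motifs. Itga1, Itga2, Itga8 and Itgav, of the same ligand classes, had no match for any motif. The table held a promoter for 33 of the 51 genes and for 19 of the 34 tested ones.

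Itga11 (ENSMUSG00000032243) encodes the α11 chain, the fibroblast receptor for fibrillar collagen. Its footprints stood at 963, 1220 and 1227 CPM in the 3 day 0 libraries, at 96.2, 126 and 72.9 at day 4 and at 244, 167 and 305 at day 8. No library of one day overlapped those of another, with day 4 lowest and day 8 between. The fitted log2 change was -3.53 ± 0.27 (SE) at day 4, an 11.5-fold lower level (edgeR, n = 3 per group, adjusted p = 4.58e-06), and -2.25 ± 0.26 at day 8, 4.76-fold lower (adjusted p = 4.24e-05). From day 4 to day 8 the level rose 2.43-fold (log2 change 1.28 ± 0.25, adjusted p = 0.00511).

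Itga1, the α1 chain that prefers the network collagen of basement membranes, had 97.0, 76.8 and 74.9 CPM at day 0, 35.4, 36.3 and 32.5 at day 4, and 55.6, 58.2 and 59.4 at day 8. The 3 days again did not overlap. It fell by 1.26 ± 0.12 on the log2 scale at day 4 (edgeR adjusted p = 1.39e-05) and by 0.52 ± 0.11 at day 8 (adjusted p = 0.00239), and rose by 0.73 ± 0.11 between them (adjusted p = 0.0018). Pelo, a ribosome rescue factor whose gene overlaps the span of Itga1, had mean levels of 19.5, 24.0 and 23.0 CPM and was not called in any of the 3 comparisons. Itga2, the α2 chain of the platelet and epithelial collagen receptor, followed at lower levels of 5.71 to 7.83 CPM at day 0, 0.49 to 1.05 at day 4 and 1.58 to 4.14 at day 8. Its log2 changes were -3.19 ± 0.41 and -1.31 ± 0.37 against day 0 and 1.88 ± 0.41 from day 4 to day 8 (edgeR adjusted p = 0.000126, 0.00999 and 0.00839). Itga10, the cartilage collagen receptor chain, was not tested, with 16, 92 and 9 counts in all at days 0, 4 and 8, of which 69 fell in day 4 replicate 2.

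Itga6 (ENSMUSG00000027111) encodes the α6 chain of the α6β1 and α6β4 laminin receptors. It had 7.19, 5.82 and 5.41 CPM at day 0, 179, 142 and 174 at day 4, and 89.7, 90.0 and 92.4 at day 8. All libraries of both later days were above all day 0 libraries, and all day 4 libraries were above all day 8 libraries. The fitted rise was 26.9-fold at day 4 (log2 change 4.75 ± 0.15, edgeR adjusted p = 5.8e-08) and 14.8-fold at day 8 (3.89 ± 0.14, adjusted p = 9.23e-08). From day 4 to day 8 it fell by 0.86 ± 0.13 on the log2 scale (adjusted p = 0.00139).

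Itga7 (ENSMUSG00000025348), the α7 chain best known as the laminin receptor of muscle fibres, had 8.22, 7.92 and 9.47 CPM at day 0, 135, 64.6 and 110 at day 4, and 94.4, 86.4 and 102 at day 8. The day 4 and day 8 libraries overlapped each other and lay far above day 0. The rise was 12.1-fold at day 4 (log2 change 3.59 ± 0.25, edgeR adjusted p = 2.22e-06) and 11-fold at day 8 (3.46 ± 0.25, adjusted p = 2.34e-06). The difference between the days was -0.13 ± 0.22 (adjusted p = 0.683), and -0.38 (adjusted p = 0.035) without day 4 replicate 2. The span of Itga7 overlaps Mettl7b, a lipid droplet-associated methyltransferase gene with mean levels of 0.098, 14 and 1.20 CPM at days 0, 4 and 8. Reads shared between the genes cannot be assigned without the counting settings. Of the muscle markers, Myod1 and Pax7 had 0 counts in every library. The summed level of the 8 skeletal and smooth muscle markers, most of it from Acta2 and Tagln, was 3875 to 5845 CPM at day 0, 79.5 to 389 at day 4 and 237 to 412 at day 8. Of the 5 tested, 4 were lower at each later day, beside 28.4% of all genes at day 4 and 33.5% at day 8. The other tested marker, the intermediate filament gene Des, was not called at day 4 and was 3.18-fold higher at day 8 (edgeR adjusted p = 0.000795), with means of 5.68, 4.22 and 18.0 CPM. The part of muscle-like cells in the Itga7 change was not tested.

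Itga3, the α3 chain of a laminin receptor of epithelia, had 11.2 to 12.5 CPM at day 0, 6.54 to 9.14 at day 4 and 10.6 to 16.4 at day 8, with day 0 and day 8 overlapping. It was lower at day 4 (log2 change -0.60 ± 0.18, edgeR adjusted p = 0.0162), higher at day 8 than at day 4 (0.81 ± 0.18, adjusted p = 0.00905) and not called between day 8 and day 0 (0.21 ± 0.18, adjusted p = 0.321). The day 4 call was lost without day 0 replicate 1 or day 4 replicate 3 (adjusted p = 0.0573 and 0.0639), and the day 8 value passed the threshold with the pair of libraries named earlier left out, with an adjusted p of 0.0276 and a log2 change of 0.36. Itgb4, the β4 chain that pairs with α6 alone in hemidesmosomes, did not follow Itga6. It had 1.86 to 2.48 CPM at day 0, 0.34 to 0.44 at day 4 and 0.29 to 0.73 at day 8, a log2 change of -2.54 ± 0.35 and -2.26 ± 0.34 (edgeR adjusted p = 0.000195 and 0.000258). Galk1, the galactokinase gene that overlaps Itgb4, was not called in any comparison.

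**Figure D2:**
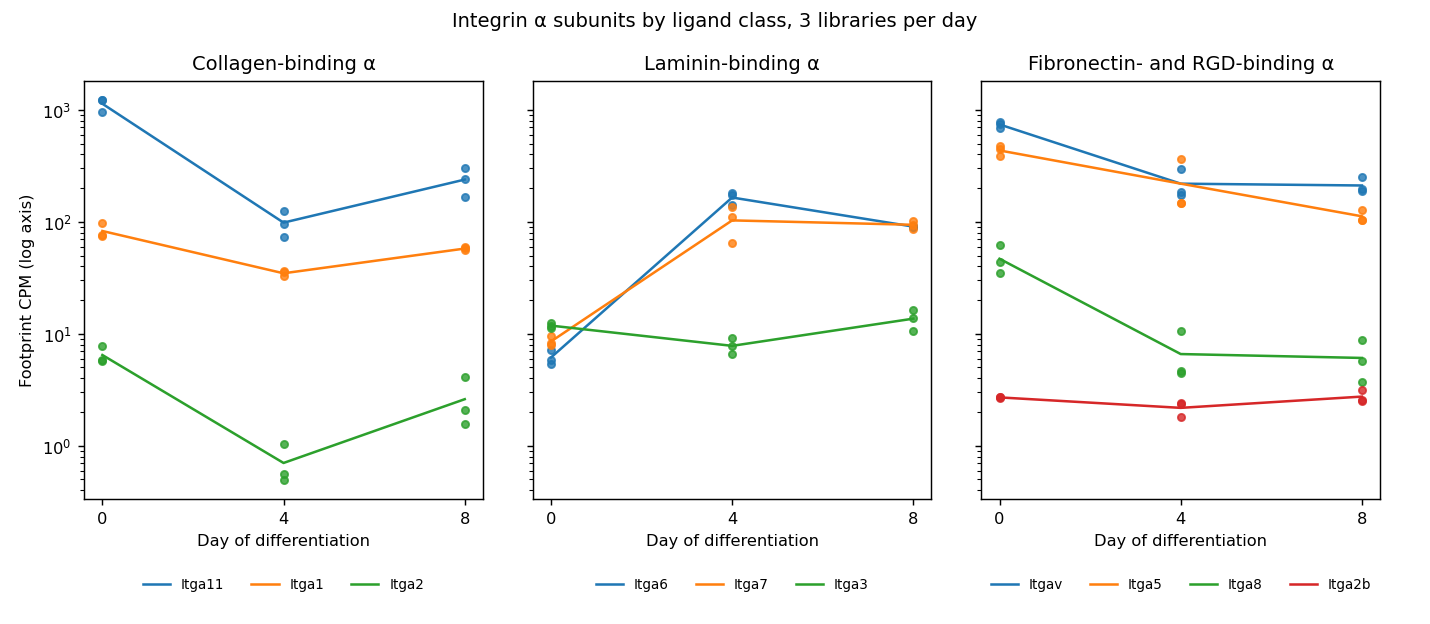
Footprint level (CPM, log axis) of the tested α subunits of the collagen-binding, laminin-binding and fibronectin- and RGD-binding classes by day. Points are the 3 libraries of a day and lines join the means. Itga11, Itga1 and Itga2 dip at day 4, Itga6 and Itga7 climb from under 10 CPM at day 0, and Itga5, Itgav and Itga8 lie lower on both later days.

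Itga5 (ENSMUSG00000000555) encodes α5, which with β1 forms the main fibronectin receptor of fibroblasts. Its levels were 445, 474 and 385 CPM at day 0, 147, 365 and 146 at day 4, and 104, 104 and 128 at day 8. Day 4 replicate 2 was close to the day 0 libraries, while the other day 4 libraries and all day 8 libraries were far below them. The log2 change was -1.95 ± 0.33 at day 8 (edgeR adjusted p = 0.000452) and -0.99 ± 0.32 at day 4 (adjusted p = 0.0226). The day 4 call was lost without day 0 replicate 1, day 0 replicate 2, day 4 replicate 1 or day 4 replicate 3 (adjusted p from 0.0591 to 0.0789). From day 4 to day 8 the change was -0.97 ± 0.32 (adjusted p = 0.0425), a call lost under 10 of the 19 alternative settings, among them the removal of any 1 day 0 or day 8 library (adjusted p from 0.0605 to 0.132).

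Itgav (ENSMUSG00000027087), the αv chain of the vitronectin and fibronectin receptors, had 695, 752 and 779 CPM at day 0, 185, 298 and 176 at day 4, and 189, 195 and 250 at day 8. It was 3.38-fold lower at day 4 and 3.51-fold lower at day 8 (log2 changes -1.76 ± 0.21 and -1.81 ± 0.21, edgeR adjusted p = 7.48e-05 and 4.48e-05), and the later days overlapped. Itga8, the α8 chain of the nephronectin receptor of mesenchymal cells, had 43.4, 35.0 and 62.0 CPM at day 0, 4.45, 10.7 and 4.65 at day 4 and 5.69, 3.72 and 8.85 at day 8. Its log2 changes were -2.83 ± 0.41 and -2.94 ± 0.41 (edgeR adjusted p = 0.000258 and 0.000149). Itga2b, the platelet αIIb chain, stood at 1.80 to 3.16 CPM over all libraries and was not called in any comparison.

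The β partners of αv were lower where they were abundant. Itgb5 (ENSMUSG00000022817), the vitronectin-binding β5 chain, had 330, 338 and 318 CPM at day 0, 61.2, 101 and 55.6 at day 4, and 56.5, 50.6 and 79.3 at day 8. Its log2 change was -2.18 ± 0.24 at day 4 and -2.40 ± 0.24 at day 8 (edgeR adjusted p = 4.47e-05 and 1.96e-05), with the later days overlapping. Its counts were 0.408 to 0.474 times those of Itgav at day 0, 0.317 to 0.339 times at day 4 and 0.26 to 0.317 times at day 8, a ratio that is not per length and is compared here only across days. Itgb3, the β3 chain of platelet and αv receptors, had 25.3, 29.2 and 33.7 CPM at day 0, 9.10, 16.7 and 9.14 at day 4 and 8.99, 7.00 and 11 at day 8. It was lower on both days (log2 changes -1.33 ± 0.26 and -1.71 ± 0.26, edgeR adjusted p = 0.00141 and 0.000244). Itgb8, the β8 chain that helps to release active TGF-β, ranged from 0.33 to 1.54 CPM and was not called, although its day 4 value of -0.95 ± 0.43 (adjusted p = 0.0829) was called without day 8 replicate 3 (adjusted p = 0.0429) and with library totals as the scale (-1.10, adjusted p = 0.0456). Itgb6, the epithelial β6 chain, was not tested, with 1, 0 and 3 counts at days 0, 4 and 8.

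Itgb1 (ENSMUSG00000025809), the β1 chain shared by most of these receptors, had 1824, 2007 and 1857 CPM at day 0, 740, 1140 and 781 at day 4, and 595, 610 and 816 at day 8. All later libraries were below all day 0 libraries, and the later days overlapped. It was 2.14-fold lower at day 4 and 2.81-fold lower at day 8 (log2 changes -1.10 ± 0.20 and -1.49 ± 0.20, edgeR adjusted p = 0.000951 and 0.000105). The change of -0.40 ± 0.19 between day 4 and day 8 was not called (adjusted p = 0.145), but passed at -0.34 (adjusted p = 0.0206) with day 4 replicate 2 and day 8 replicate 3 both left out. Itga9, which binds tenascin and other matrix proteins, had 42.8, 38.8 and 44.7 CPM at day 0, 5.50, 12.2 and 6.40 at day 4, and 5.53, 5.27 and 8.93 at day 8. It fell by 2.39 ± 0.30 and 2.68 ± 0.31 on the log2 scale (edgeR adjusted p = 0.000106 and 4.11e-05). Itga4, its relative that binds Vcam1 and fibronectin, was lower at 2.04 to 3.08 CPM at day 0 against 1.22 to 1.4 at day 4 and 0.95 to 1.51 at day 8 (log2 changes -1.0 ± 0.26 and -1.06 ± 0.26, edgeR adjusted p = 0.00731 and 0.00436).

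Summed over the α subunits of a class, collagen-binding footprints were 1226 ± 139 CPM (SD, n = 3) at day 0, 135 ± 29.7 at day 4 and 299 ± 71.2 at day 8. Itga11 made up most of that sum, and without it the means were 89.5, 36.3 and 60.5 CPM. Laminin-binding footprints were 26.5 ± 1.47, 276 ± 54.6 and 199 ± 6.01 CPM. Fibronectin- and RGD-binding footprints were 1227 ± 38.9, 448 ± 198 and 332 ± 50.4 CPM. The laminin-binding sum was thus 0.0198 to 0.0235 times the fibronectin-binding sum at day 0, between 0.319 and 0.952 times at day 4 and between 0.524 and 0.657 times at day 8. The lowest day 4 ratio was that of replicate 2. Sums weight longer genes more, so the ratio is read only between days. No p is given for these sums.

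**Figure D3:**
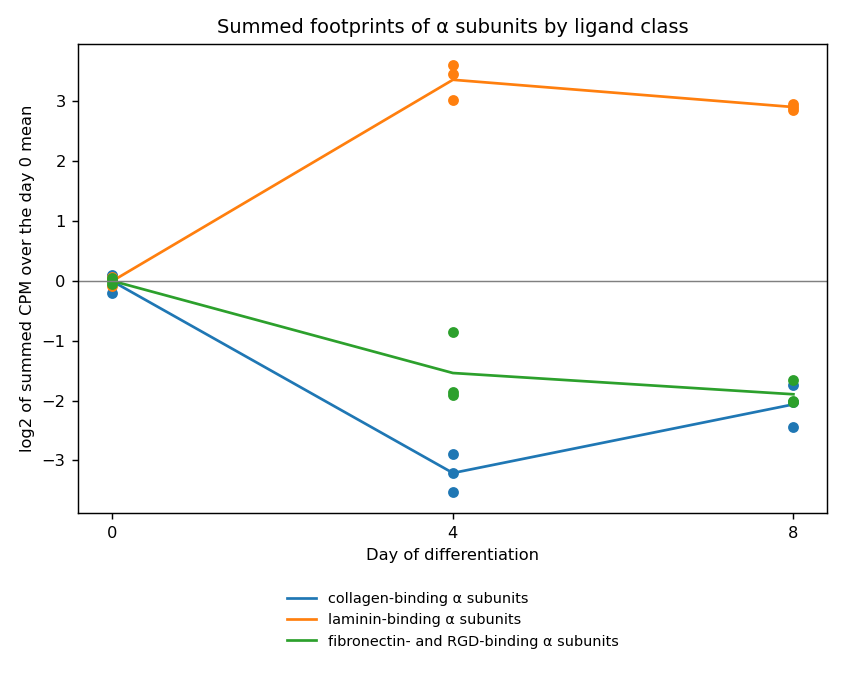
Summed CPM of the α subunits of each ligand class in each library, as log2 over the class's day 0 mean, by day. Points are libraries and lines join the group means of these log2 values. The laminin-binding sum lies near 3 on both later days, the fibronectin-binding sum lies below 0, and the collagen-binding sum is lowest at day 4.

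Among the integrins known from leukocytes, Itgad stood apart. Itgad (ENSMUSG00000070369) encodes αD, a partner of β2 described on tissue macrophages. It had 0.49, 0.50 and 0.61 CPM at day 0, 60.3, 52.5 and 20.8 at day 4, and 196, 189 and 160 at day 8, and no library of one day overlapped another day. The log2 change was 6.38 ± 0.43 at day 4 (83.2-fold, edgeR adjusted p = 1.97e-06) and 8.41 ± 0.45 at day 8 (339-fold, adjusted p = 5.95e-07), with a rise of 2.03 ± 0.31 between them (4.08-fold, adjusted p = 0.00176). Its partner Itgb2 had 10.7, 10.5 and 12.1 CPM at day 0, 8.72, 6.99 and 7.22 at day 4 and 5.56, 7.81 and 7.64 at day 8, a log2 change of -0.54 ± 0.17 and -0.66 ± 0.17 (edgeR adjusted p = 0.0187 and 0.00532). The day 4 call of Itgb2 was lost without day 0 replicate 3 or day 4 replicate 3 (adjusted p = 0.0708 and 0.0625). Itgad counts were 0.0457 to 0.05 times those of Itgb2 at day 0, 2.89 to 7.51 times at day 4 and 20.9 to 35.3 times at day 8. This ratio is not per length either and is compared only across days.

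Leukocyte markers were set beside Itgad. Of 10 listed, 8 were tested. None was higher on either day, beside 29.8% and 34.2% of all genes. None was lower at day 4, and Csf1r, Lyz2 and Tyrobp were lower at day 8, beside 28.4% and 33.5% of all genes. The summed level of the 10 was 55.8 to 106 CPM at day 0, 53.7 to 65.5 at day 4 and 22.0 to 51.1 at day 8. Aif1 was too low to test. The span of Itgad overlaps Cox6a2, the muscle-type subunit of cytochrome c oxidase, which had mean levels of 2.92, 2.67 and 24.5 CPM at days 0, 4 and 8. Cox6a2 was not called at day 4 (log2 change -0.13 ± 0.28, edgeR adjusted p = 0.708) and was higher at day 8 (3.07 ± 0.28, adjusted p = 1.06e-05). Where along Itgad the footprints lie was not tested, since the counts are per gene.

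**Figure D4:**
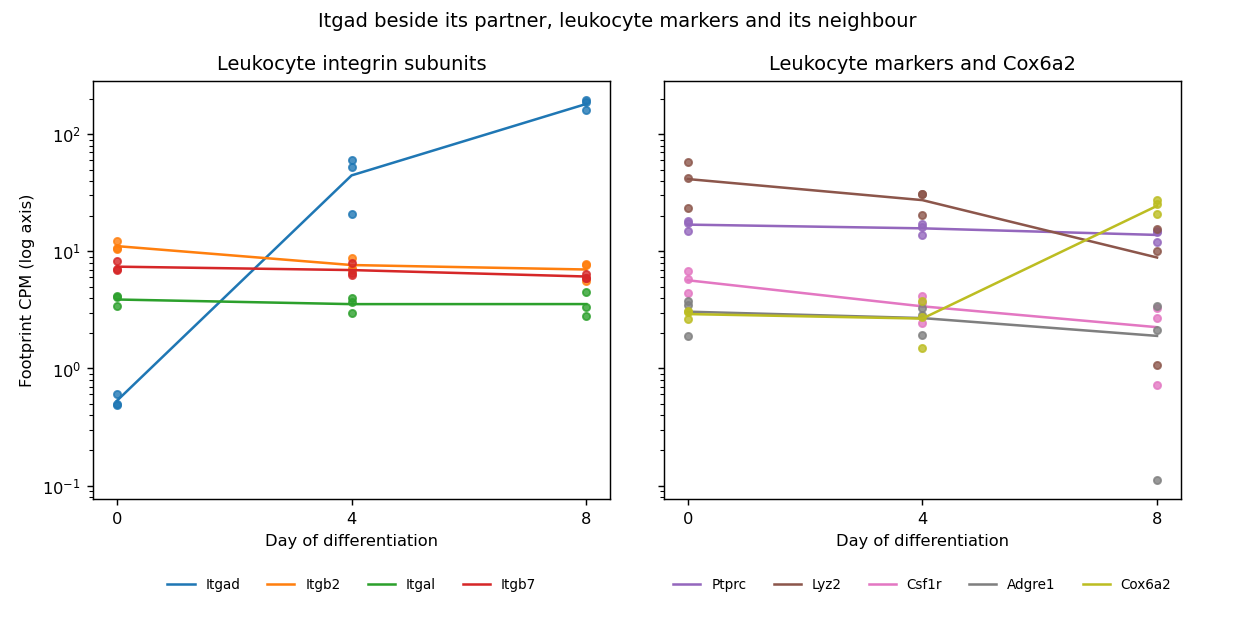
Footprint level (CPM, log axis) by day of Itgad with Itgb2, Itgal and Itgb7 (left) and of the leukocyte markers Ptprc, Lyz2, Csf1r and Adgre1 with the overlapping gene Cox6a2 (right). Points are the 3 libraries of a day and lines join the means. Itgad goes from under 1 CPM at day 0 to 160 to 196 CPM at day 8 while the other integrin genes stay below 13 CPM.

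Itgae, the αE chain that with β7 holds lymphocytes to E-cadherin, was higher on both days at a very low level. It had 0.06 CPM in each day 0 library (6 counts in all), 0.63 to 1.48 at day 4 and 0.88 to 1.28 at day 8, with log2 changes of 4.17 ± 0.48 and 4.07 ± 0.49 (edgeR adjusted p = 6.29e-05 and 5.43e-05). Haspin, a mitotic kinase gene that overlaps its span, was higher at day 4 and lower at day 8, with means of 2.29, 3.93 and 1.19 CPM. Itgal, the αL chain of LFA-1, ranged from 2.82 to 4.46 CPM, and Itgb7 from 5.94 to 8.26 CPM. Neither was called, except Itgb7 at day 8 with upper quartile scaling (-0.39, adjusted p = 0.0423). Itgam, Itgax and Itgb2l were not tested, with at most 22 counts in all in any group.

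Itgbl1, which encodes a secreted protein made of β-integrin-like repeats and is no receptor chain, had 87.7, 103 and 159 CPM at day 0, 48.8, 130 and 67.3 at day 4, and 10.4, 9.20 and 26.1 at day 8. All day 8 libraries were below all others, and day 4 overlapped day 0 through replicate 2. The log2 change was -2.94 ± 0.48 at day 8 (edgeR adjusted p = 0.00041) and -2.43 ± 0.47 from day 4 to day 8 (adjusted p = 0.00498), and -3.55 and -3.04 without day 8 replicate 3. At day 4 it was -0.51 ± 0.45 (adjusted p = 0.348), and -1.01 (adjusted p = 0.00159) with day 4 replicate 2 and day 8 replicate 3 both left out.

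The cadherins were mostly lower after differentiation. Of the 11 tested, 7 were lower and 2 higher at day 4, and 7 lower and 2 higher at day 8. The median log2 change was -1.73 and -2.60. Over all genes tested, 28.4% were lower and 29.8% higher at day 4, and 33.5% and 34.2% at day 8. Cdh11 (ENSMUSG00000031673), the mesenchymal OB-cadherin, had 535, 534 and 603 CPM at day 0, 76.6, 136 and 72.1 at day 4, and 65.4, 61.0 and 107 at day 8. It was 5.87-fold lower at day 4 and 7.16-fold lower at day 8 (log2 changes -2.55 ± 0.29 and -2.84 ± 0.29, edgeR adjusted p = 4.95e-05 and 2.08e-05), and the later days overlapped.

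Cdh2 (ENSMUSG00000024304), N-cadherin of fibroblasts and neurons, had 199, 192 and 193 CPM at day 0, 40.6, 136 and 49.1 at day 4, and 14.9, 13.5 and 31.4 at day 8. The days did not overlap, though day 4 replicate 2 lay far above the other day 4 libraries. The fall was 9.78-fold at day 8 (log2 change -3.29 ± 0.48, edgeR adjusted p = 0.000206). At day 4 it was -1.37 ± 0.45 (adjusted p = 0.0245), or -2.12 (adjusted p = 0.000151) without day 4 replicate 2. The call was lost without any 1 day 0 library, day 4 replicate 1 or day 4 replicate 3 (adjusted p from 0.0525 to 0.0864). From day 4 to day 8 it was -1.92 ± 0.46 (adjusted p = 0.0124), or -1.17 without day 4 replicate 2, and was not called without day 8 replicate 1 or day 8 replicate 2 (adjusted p = 0.0568 and 0.0552).

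Cdh3 (ENSMUSG00000061048), P-cadherin, had 124, 135 and 122 CPM at day 0, 4.91, 7.98 and 1.64 at day 4, and 3.80, 1.71 and 6.63 at day 8. It was 26.2-fold lower at day 4 and 31.4-fold lower at day 8 (log2 changes -4.71 ± 0.56 and -4.97 ± 0.57, edgeR adjusted p = 7.52e-05 and 4.25e-05), and the later days overlapped. Cdh1, E-cadherin of epithelia, was not tested, with 23, 20 and 10 counts at days 0, 4 and 8. Of 8 epithelial markers, 6 were too low to test. Their summed level of 28.9 to 47.8 CPM at day 0, 37.4 to 87.5 at day 4 and 30.1 to 33.0 at day 8 was mostly Krt19, which was not called, while Krt18, at most 0.88 CPM, was lower on both days. Their part in the Cdh3 change was not tested.

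Cdh13, the truncated, membrane-anchored T-cadherin that binds adiponectin, went the other way. It had 2.19, 1.11 and 3.23 CPM at day 0, 5.32, 11.9 and 7.36 at day 4, and 6.17, 4.38 and 6.72 at day 8, all later libraries above all day 0 libraries. The rise was 3.74-fold at day 4 and 2.63-fold at day 8 (log2 changes 1.90 ± 0.40 and 1.39 ± 0.39, edgeR adjusted p = 0.00232 and 0.01). Adipoq, the gene of its ligand, had means of 10.8, 3144 and 2094 CPM.

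The other cadherins were scarce. Cdh5, VE-cadherin of endothelium, had 1.04 to 1.39 CPM at day 0, 0.23 to 0.49 at day 4 and 0.11 to 0.39 at day 8 (log2 changes -1.73 ± 0.44 and -2.38 ± 0.47, edgeR adjusted p = 0.00742 and 0.00124), and its day 8 value was -3.05 without day 8 replicate 3. The 9 endothelial markers summed to 20.2 to 29.0 CPM at day 0, 6.74 to 21.3 at day 4 and 4.44 to 9.32 at day 8. Of the 6 tested, 1 was lower at day 4 and 4 were lower at day 8, beside 28.4% and 33.5% of all genes. Their part in the Cdh5 change was not tested.

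Cdh10, a type II cadherin described mainly in the nervous system, and Cdh24, another type II cadherin, were lower on both days. Cdh10 went from 2.01 to 2.26 CPM at day 0 to at most 0.15 on the later days (edgeR log2 changes -4.44 ± 0.57 and -4.47 ± 0.57, adjusted p = 0.000119 and 8.21e-05). Cdh24 went from 1.08 to 2.14 CPM to at most 0.29 (-2.95 ± 0.38 and -2.60 ± 0.36, adjusted p = 0.000114 and 0.000151). Cdh17, the intestinal cadherin, had 100 counts in all at day 0, 13 at day 4 and 3 at day 8. It was called lower on both days. Its day 0 to day 8 ratio of pooled counts, scaled by pooled library size, was 35.8 (95% exact Poisson interval 11.9 to 177, counting error only). Its fitted day 8 log2 change, which rests on those 3 counts, moved from -4.99 to -5.84 without day 8 replicate 1.

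Cdh6, a type II cadherin of kidney and neural crest, was higher at day 8 at 0.67 to 0.81 CPM against 0.15 to 0.46 at day 0 and 0.17 to 0.33 at day 4. The edgeR log2 change was 1.43 ± 0.43 against day 0 (adjusted p = 0.014) and 1.73 ± 0.44 against day 4 (adjusted p = 0.0163). The first was lost without day 0 replicate 2 or replicate 3 (adjusted p = 0.0532 and 0.0543) and the second without day 4 replicate 3 or day 8 replicate 1 (adjusted p = 0.0551 and 0.0516). Cdh9, another neural type II cadherin, was higher at day 4 than at day 0 (2.41 ± 0.83, adjusted p = 0.0304) and lower at day 8 than at day 4 (-2.68 ± 0.85, adjusted p = 0.0372). These calls rested on at most 1.21 CPM in any library and were each lost without any of several single libraries, day 4 replicates 2 and 3 among them (adjusted p from 0.0585 to 0.124), while the first reached 4.52 without day 0 replicate 3. Cdh19, known from Schwann cell precursors, ranged from 0.19 to 1.04 CPM and was not called.

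Of the 12 untested cadherins, Cdh12 and Cdh16 had 0 counts in every library. Cdh26 had 51, 8 and 1 counts at days 0, 4 and 8, and Cdh23 had 15, 9 and 6. Cdh18 had 12, 1 and 0 counts. Cdh4, Cdh7, Cdh8, Cdh15, Cdh20 and Cdh22 had at most 5 counts in all in any group.

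**Figure D5:**
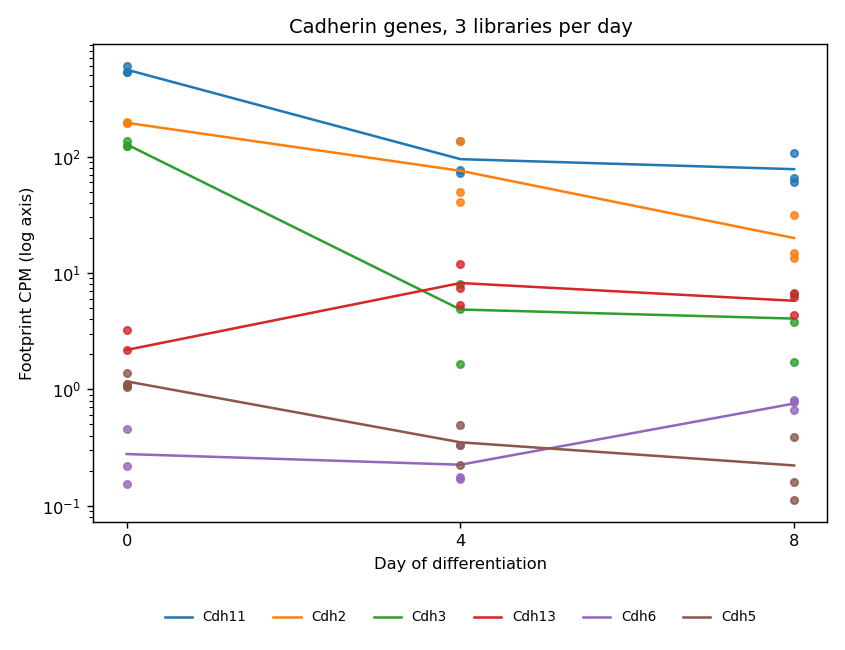
Footprint level (CPM, log axis) of 6 cadherin genes by day. Points are the 3 libraries of a day and lines join the means. Cdh11, Cdh2 and Cdh3 are lower on both later days and Cdh13 is higher, with day 4 replicate 2 of Cdh2 at 136 CPM.

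Inside the cell, integrins are switched on by talins and kindlins and tied to actin through a set of adaptors. Of the 28 tested genes of this adhesion core, 19 were lower and 3 higher at day 4, 23 were lower and 2 higher at day 8, and 9 were lower and 3 higher between the days. The median log2 change was -0.76 at day 4 and -0.96 at day 8. Among all genes tested, 28.4% were lower and 29.8% higher at day 4, and 33.5% and 34.2% at day 8. Between the days, 17.1% of all genes were lower and 14.7% higher. Parva, a parvin that joins integrin-linked kinase to actin, fell 3.41-fold by day 8, from 248 to 304 CPM to 68.1 to 95.3 (edgeR adjusted p = 6.9e-06). Tln2, the second talin, fell 4.96-fold, from 96.6 to 104 CPM to 15.7 to 24.9 (adjusted p = 7.93e-06). Flna, an actin crosslinker that binds β tails, fell 6.61-fold, from 1166 to 1218 CPM to 139 to 242 (adjusted p = 1.56e-05), and vinculin (Vcl) fell 1.81-fold (adjusted p = 0.00131). Ptk2b, the focal adhesion kinase relative Pyk2, rose 3.26-fold, from 30.1 to 34.8 CPM to 94.3 to 115 (adjusted p = 7.17e-06). Fermt2, the kindlin of mesenchymal cells, was singled out after its values were seen because it turned: it had means of 228, 142 and 336 CPM at days 0, 4 and 8, lower at day 4 (log2 change -0.68 ± 0.11) and higher at day 8 (0.56 ± 0.11, adjusted p = 0.00139).

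Catenins join the cadherin tails to actin, and nectins and other partners work beside them. Of 12 tested, 9 were lower and none higher at day 4, and 7 were lower and 1 higher at day 8, with medians of -0.73 and -0.98. The shares of all genes were 28.4% lower and 29.8% higher at day 4, and 33.5% and 34.2% at day 8. Ctnnb1, β-catenin, was 2.34-fold lower at day 8, at 442 to 505 CPM against 1046 to 1161 at day 0 (edgeR adjusted p = 1.52e-05). Jup, plakoglobin, was 4.21-fold lower (adjusted p = 1.34e-05), and Ctnna2, the neural α-catenin, went from 1.28 to 1.52 CPM to at most 0.08 (adjusted p = 1.12e-05). Ctnna1, the general α-catenin, was not called on either day, at 516 to 551 CPM at day 0 and 479 to 506 at day 8 (log2 change -0.11 ± 0.10, adjusted p = 0.343).

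The ligands can be set beside their receptors. Of 11 tested fibronectin and RGD ligands, 7 were lower and 1 higher at day 4, and 9 lower and 2 higher at day 8, with medians of -1.47 and -2.43. Beside them, 28.4% of all genes were lower and 29.8% higher at day 4, and 33.5% and 34.2% at day 8. Fn1, fibronectin itself, had 23778 to 28173 CPM at day 0, 5951 to 12873 at day 4 and 2168 to 4629 at day 8, 8.59-fold lower at day 8 (edgeR adjusted p = 9.21e-05). Fbn1, fibrillin of the microfibrils, was 10.8-fold lower at day 8 (adjusted p = 0.000158), Edil3 was 8.33-fold lower (adjusted p = 2.24e-05) and Ltbp1, which stores latent TGF-β, was 5.39-fold lower (adjusted p = 1.8e-05). Mfge8, the bridging protein lactadherin, rose 3.76-fold, from 356 to 481 CPM at day 0 to 1403 to 1731 at day 8 (adjusted p = 5.58e-06).

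Of 10 tested laminin chains, 7 were higher and 1 lower at day 4, and 4 were higher and 4 lower at day 8, with medians of 0.87 and -0.006, beside 29.8% of all genes higher and 28.4% lower at day 4 and 34.2% and 33.5% at day 8. Lamc1 and Lamb1, the common γ and β chains, were higher at day 4 (2.09-fold and 1.31-fold, edgeR adjusted p = 0.00144 and 0.0381) and not called between day 8 and day 0. Lamb3 and Lamc3 were higher at day 8 by 12.6-fold and 89.0-fold (adjusted p = 3.3e-06 and 6.24e-05), at no more than 7.62 CPM in any library. Of 10 collagen chains, 5 were higher and 3 lower at day 4, and 2 were higher and 6 lower at day 8, with medians of 0.43 and -1.39. Col5a2, Col1a2 and Col1a1, chains of the fibrils that α11β1 binds, were 7.38-fold, 7.85-fold and 6.57-fold lower at day 8 (adjusted p = 1.46e-05, 7.31e-05 and 9.54e-05). From day 4 to day 8, 9 of the 10 collagen chains were lower, while the 3 tested collagen-binding α subunits were higher. Between these days 17.1% of all genes were lower and 14.7% higher. The 5 chains higher at day 4, named after their values were seen, were Col4a1, Col4a2, Col6a1, Col6a2 and Col6a3. Their later fall came after a day 4 peak, as for Col4a1 with means of 3030, 7807 and 2809 CPM.

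Other matrix receptors were split, with 3 of 11 tested higher and 6 lower at day 4, and 3 higher and 6 lower at day 8. All genes tested were 29.8% higher and 28.4% lower at day 4, and 34.2% and 33.5% at day 8. Dag1, dystroglycan, the laminin receptor outside the integrin family, had 295 to 303 CPM at day 0, 444 to 606 at day 4 and 514 to 571 at day 8, 1.80-fold higher at day 8 (edgeR adjusted p = 0.00026). Cd151, the tetraspanin that binds laminin-binding integrins, was 2.65-fold higher at day 8 (adjusted p = 2.49e-05), and the syndecan Sdc4 was 2.38-fold higher (adjusted p = 6.59e-05). Sdc2 was 3.06-fold lower (adjusted p = 4.5e-05), and Ddr2, the collagen receptor kinase of fibroblasts, was 2.78-fold lower (adjusted p = 0.00131).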

How the data were processed

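The deposited values are raw counts of ribosome footprints per gene in 9 libraries, with no normalisation by the authors as far as the values show. Per the submitters' processing notes, reads were trimmed with cutadapt, aligned to GRCm39 with HISAT2 and counted with featureCounts. Tool versions, strand and multi-mapping settings: not given in the sources used here. Groups came from the labels. Genes passing filterByExpr (minimum count 10), 14714 in all, entered edgeR 4.0.16 (R 4.3.3), whose quasi-likelihood F test was applied to counts scaled by TMM, with group as the only term over all 9 libraries. P-values were adjusted by Benjamini-Hochberg over all genes and called under 0.05. SE is the log2 change over the root of the F statistic. CPM use TMM-scaled library sizes. Alternatives used other scalings and filters, DESeq2 1.42.0, limma-voom (limma 3.58.1), the 2 groups alone, a replicate block and single libraries left out. The removal of day 4 replicate 2 and day 8 replicate 3 together was added without being planned. Genes with a mean of at least 10 CPM in a group are given in full, and other lists by at most 3 smallest adjusted p at day 8 and 2 highest counts. Members and lists were chosen with earlier results of these data known. Coding lengths were not used here, so levels of different genes were not compared. Gene overlaps and promoters came from RefSeq tables of GRCm38.p6. The scripts were tested on simulated data.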

Additional observations from a re-analysis of the deposited data

How the results depend on the processing

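Over 102 gene results and 19 alternative settings (1923 values), 1823 kept their direction and side of the threshold, 39 lost the call, 8 gained it, 0 called values reversed, and 53 values not called either way had the other sign. The calls lost or gained are given beside their genes. Leaving out 1 library gave 22 to 28 members called at day 4, 26 to 27 at day 8 and 7 to 11 between the days, with 2 to 5 lower there. The same settings called 7246 to 9517, 9050 to 10523 and 2722 to 4909 of all genes. The CPM filter (over 1 CPM in at least 3 libraries) left 25, 25 and 9 called, since fewer genes were tested. It left 7948, 9147 and 4605 of all genes called. With a replicate block 27, 27 and 10 members were called, against 27, 27 and 11, and Itga5 between the days was not called (-0.85, adjusted p = 0.0678). The block left 8290, 9722 and 4079 of all genes called. Deviations from the group means of libraries of equal number had correlations from -0.2 to 0.188. With 3 libraries per group these values cannot show whether the numbers pair libraries, which the labels do not say. Upper quartile scaling moved the laminin-binding sum at day 8 from a log2 ratio of 2.90 to 2.80, beyond 1 SD. It moved the median of all genes to -0.144 at day 4 and -0.113 at day 8, and library totals moved it to -0.172 at day 4 and 0.121 between the days, where 65.9% of called genes were higher against 46.2% with TMM. The totals also left 41.9% of called genes higher at day 4 against 51.2%. Genes under about 1 CPM rest on few counts, and matched RNA, coding lengths and the animals behind each library were not analysed here.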
